A study of Mus musculus with 6 samples.

Results

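The genes described here are 9 genes of retinoic acid signalling: the retinol transporter gene Stra6, the synthetic enzyme gene Aldh1a1, the binding protein genes Crabp1 and Crabp2, the receptor genes Rara, Rarb, Rarg and Rxra, and the degrading enzyme gene Cyp26b1. They were chosen by name, with earlier results of these data known. Every probe set of the array that the platform annotation gives to one of them was taken. This gave 12 probe sets for the 9 genes, of 45037 probe sets and 18193 genes named by a single symbol in all. RNA from the lungs of 6 mouse fetuses at E18.5 was measured on Affymetrix arrays, each labelled as a biological replicate. Of these, 3 carried the floxed Nfib genotype written Nfibf/f and served as controls, and 3 carried Nfibf/f, Dermo1-Cre. Floxed Nfib is thus common to all 6 lungs, and the groups differ by Cre. Nfib encodes nuclear factor I B, a DNA-binding regulator of transcription. Dermo1, also called Twist2, is a mesenchymal gene whose locus drives this Cre, so recombination is directed to mesenchyme. The series asks what mesenchymal Nfib does in lung maturation, and the comparison here is that of the Cre arrays with the controls.

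Vitamin A reaches cells as retinol, which STRA6 can import, and is oxidised first to retinaldehyde and then, by ALDH1A enzymes, to retinoic acid. CRABP proteins carry retinoic acid in the cytoplasm, CYP26 enzymes degrade it, and in the nucleus it binds heterodimers of RAR and RXR receptors that sit on direct repeats of a short core motif in target genes. In the lung the pathway is known for its role in the outgrowth of the lung buds and in the formation of alveoli around birth.

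None of the 8 member probe sets that could be tested passed an adjusted p of 0.05, against 3.56% of all tested probe sets, 1.41% higher and 2.16% lower (limma with Benjamini-Hochberg adjustment; 1 of the 8 had an unadjusted p under 0.05, against 19.5% of all). The gene nearest to the threshold was Aldh1a1, whose signal was lower on every Cre array than on every control array. The 4 receptor genes and Cyp26b1 had differences whose intervals included 0. Crabp1, Crabp2 and Stra6 read too low to be tested in the main fit.

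Nfib itself read higher in the lungs labelled Cre. Its brightest probe set measured 10.24, 10.32 and 10.17 on the control arrays and 11.24, 11.16 and 11.49 on the Cre arrays, on the log2 scale. Of its 6 tested probe sets 5 rose and 1 did not pass, at -0.11 ± 0.13 SE (limma adjusted p = 0.71). No source used here places these probes against the floxed exon, so they do not check the labels, and the groups are called control-labelled and Cre-labelled below. The lung markers Sftpc, Ager and Scgb1a1 read 11.71 or more on all 6 arrays, as did the lung mesenchyme gene Tcf21. Every array had a trimmed mean signal of 150 on the linear scale, and the median log2 signal lay between 4.80 and 5.03. Striated muscle genes stood out on single arrays: the summed skeletal muscle signal was 11.76 (log2) on control-labelled replicate 1 and between 7.88 and 8.99 on the other 5 arrays.

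The upstream sequences of the members show where receptor core motifs and motifs of the nuclear factor I family occur. RefSeq start sites (GRCm38.p6) were found for 8 of the 9 genes, in 17 windows of 250 bases ending at the base before the start. Rarb and Cyp26a1, the gene of a second degrading enzyme, are textbook direct targets of the receptors, so their windows are printed with the direct repeat in capitals. Aldh1a1 is printed because it had the smallest p of the members, with the nuclear factor I motif TTGGCA in capitals. The window printed is that of its upstream start, taken because it holds this motif. Its other window, chr19:20601718-20601967, holds no TTGGCA and is not printed. That window holds a receptor core motif on the opposite strand, from 49 to 44 bases before its start. Which start gave the measured RNA was not tested. All printed windows are written 5′ to 3′ on the strand of the gene.
Rarb, chr14:16575477-16575726, minus strand: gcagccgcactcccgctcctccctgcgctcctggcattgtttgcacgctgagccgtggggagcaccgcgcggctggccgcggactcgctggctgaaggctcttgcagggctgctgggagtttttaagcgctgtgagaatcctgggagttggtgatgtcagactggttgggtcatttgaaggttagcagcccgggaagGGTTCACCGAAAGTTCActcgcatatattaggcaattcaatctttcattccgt
Cyp26a1, chr19:37697558-37697807, plus strand: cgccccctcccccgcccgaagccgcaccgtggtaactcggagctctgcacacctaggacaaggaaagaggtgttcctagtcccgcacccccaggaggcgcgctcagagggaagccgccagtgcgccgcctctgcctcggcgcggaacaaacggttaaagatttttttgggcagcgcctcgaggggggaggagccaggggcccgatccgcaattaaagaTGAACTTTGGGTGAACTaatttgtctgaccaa
Aldh1a1, chr19:20492333-20492582, plus strand: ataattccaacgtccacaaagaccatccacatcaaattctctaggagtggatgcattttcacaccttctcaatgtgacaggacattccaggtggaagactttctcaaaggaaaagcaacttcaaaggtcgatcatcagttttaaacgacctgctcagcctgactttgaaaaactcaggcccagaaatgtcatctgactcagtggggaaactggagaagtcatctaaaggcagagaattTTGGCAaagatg

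The core motif was searched as AGGTCA and as GGTTCA, and further as AGTTCA and as GGGTCA, on both strands, singly and as a direct repeat with 5, 2 or 1 bases between the copies. The repeat spaced by 5 was found in the Rarb window, from 53 to 37 bases before the start, and in no other member window. The Cyp26a1 window holds one on the opposite strand, from 32 to 16 bases before the start. Among all 32851 RefSeq windows of this length 29 (0.0883%) held such a repeat. A single core motif, which the repeats contain as well, was present in 5 of the 17 member windows and in 38.6% of all windows.

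Nuclear factor I proteins bind TTGGC and GCCAA with 5 bases between them, and more weakly a single arm. The full site was in none of the 17 member windows and in 0.0365% of all windows. TTGGCA, which a full site can contain, was in 4 of the 17 and in 12.3% of all windows. It was in the printed Aldh1a1 window, from 12 to 7 bases before that start, and not in the other Aldh1a1 window. It was also in 1 of the Rxra windows and once in each of the Rarg windows. A match describes the letters of the window only, and binding was not measured.

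Below, levels are log2 signals, and a difference is the mean of the Cre-labelled arrays less that of the control-labelled ones, given with its standard error (SE) or 95% interval from limma (3 arrays a group). The number of arrays limits the precision. In RNA of a lung, fewer cells of a type and less RNA per cell cannot be told apart.

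**Figure D1:**
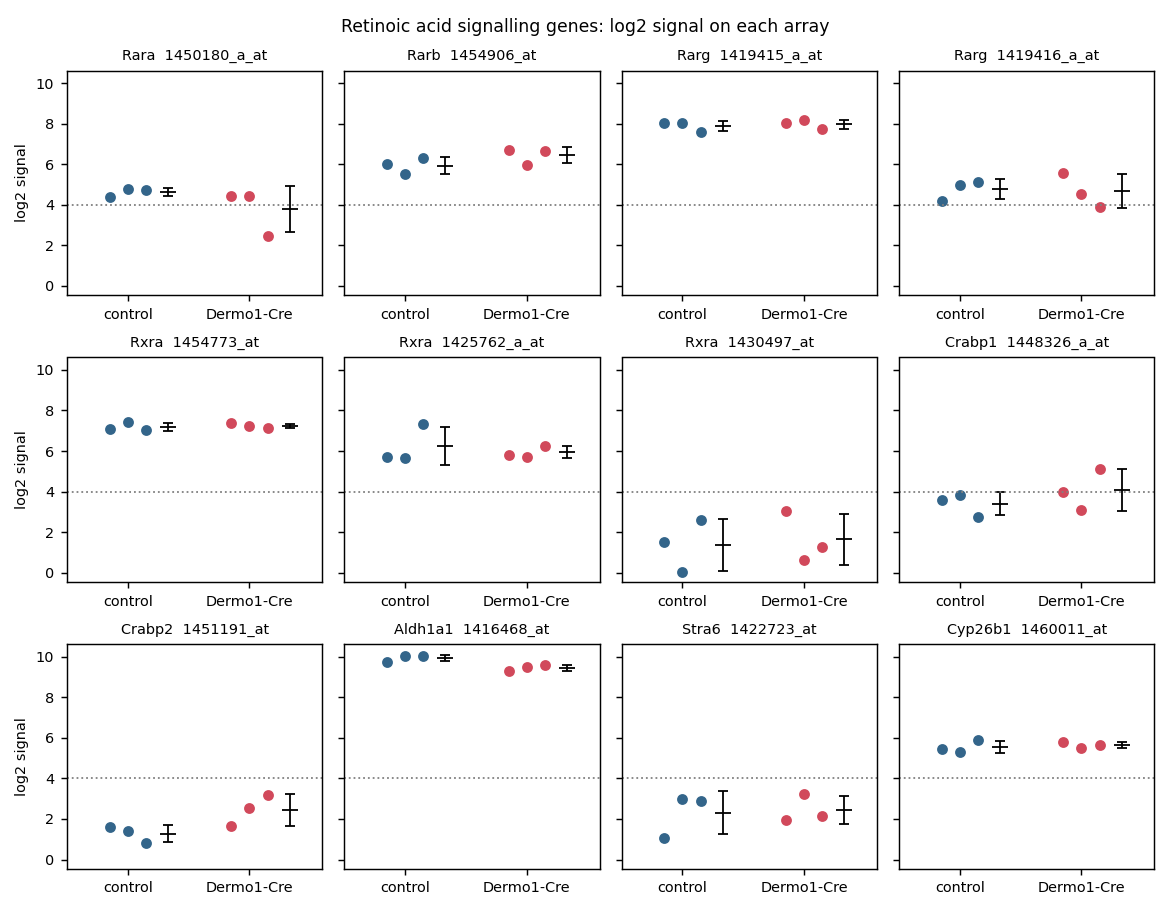
Log2 signal of the 12 member probe sets on each array (y axis), with control-labelled arrays in blue and Cre-labelled arrays in red. The black mark is the group mean with its SD (n = 3) and the dotted line the mean level required for testing; only Aldh1a1 and Crabp2 have groups that do not overlap, and Crabp2 lies below the line.

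Among the supply genes, Aldh1a1 was lower in Cre-labelled lungs without passing the threshold. Aldh1a1 encodes retinaldehyde dehydrogenase 1, which makes retinoic acid from retinaldehyde and also clears other aldehydes. Its probe set measured 9.74, 10.04 and 10.04 on the control-labelled arrays and 9.28, 9.47 and 9.57 on the Cre-labelled arrays. The groups did not overlap, as was the case for 26.1% of all tested probe sets. On the linear scale these are signals of 857 to 1053 against 624 to 762.

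The difference of Aldh1a1 was -0.50 ± 0.12 SE, or 1.41-fold lower (95% interval -0.77 to -0.22; unadjusted p = 0.0024, limma adjusted p = 0.056). Its p ranked 1166 of 27022, and 963 probe sets were called. Permuting the arrays of Aldh1a1 exactly gave a two-sided p of 0.10, the smallest that 3 against 3 arrays allow. Its sign was negative in all 18 alternative fits, and its adjusted p lay below 0.05 in 4 of them: quantile normalization (0.033), a filter at the 60th percentile (0.041), the replicate number as a block (0.026) and the mean over each gene's probe sets (0.035). It was not past the threshold in any of the 6 fits that left out 1 array (adjusted p 0.060 to 0.16), and it was 0.25 with the cardiac marker mean as a covariate.

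**Figure D2:**
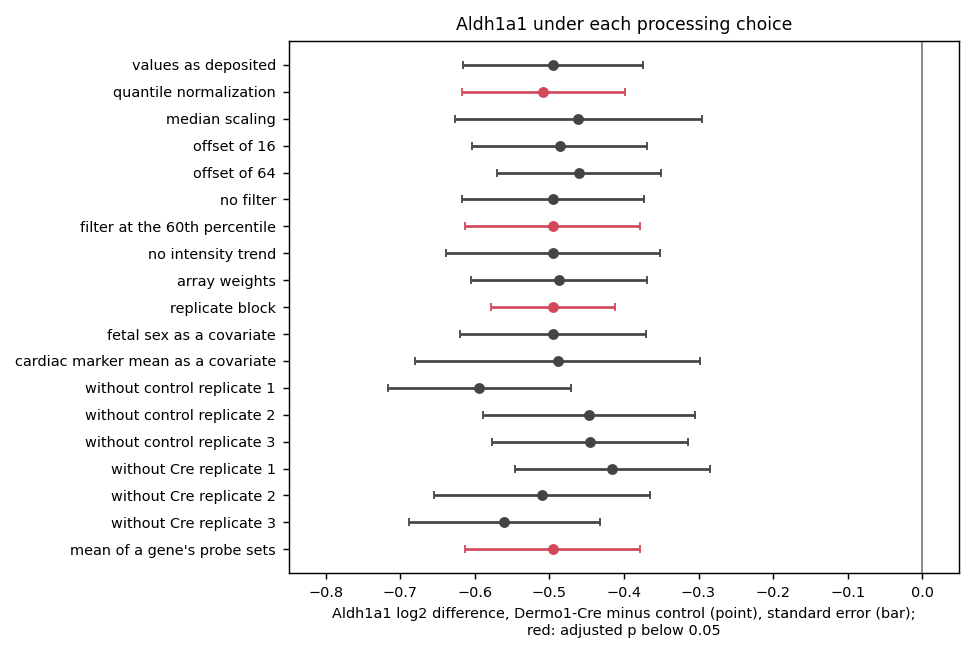
Log2 difference of Aldh1a1 (x axis, point) with its standard error (bar) for the values as deposited and under each of 18 other processing choices; red points have an adjusted p below 0.05. The differences run from -0.59 to -0.42, and 4 of the 18 choices are red.

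Stra6 encodes the membrane receptor that takes up retinol from its plasma carrier. Its probe set read 1.08, 2.96 and 2.88 on the control-labelled arrays and 1.95, 3.22 and 2.17 on the Cre-labelled arrays. Their mean lies below that required for testing, the 40th percentile of all probe sets (a log2 signal of 4.003), and the arrays of both groups were intermingled. In the fit without a filter its difference was 0.14 ± 0.70 SE (limma adjusted p = 0.96), so that changes of more than 2-fold either way lie inside its interval (-1.43 to 1.71).

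Both carrier genes read near the floor. Crabp2 encodes the carrier that delivers retinoic acid to the nucleus, and its probe set read 1.61, 1.40 and 0.82 on the control-labelled arrays and 1.64, 2.54 and 3.20 on the Cre-labelled arrays. The groups did not overlap, but the highest control value and the lowest Cre value were 1.61 and 1.64. Without a filter the difference was 1.18 ± 0.67 SE (limma adjusted p = 0.49), and once 64 was also added to each linear signal, a setting chosen after seeing the data, it was 0.07 ± 0.04 SE (adjusted p = 0.41).

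Crabp1, the gene of the related cytoplasmic carrier, read 3.59, 3.83 and 2.76 against 3.97, 3.07 and 5.13. Cre-labelled replicate 3 was the highest of the 6 arrays, and the other Cre-labelled arrays lay close to or within the control-labelled range. Its difference without a filter was 0.66 ± 0.56 SE (limma adjusted p = 0.67). Cre-labelled replicate 3 had the highest reading of both carrier genes. On linear signals the Crabp1 values are 6.78 to 14.3 against 8.38 to 35.0, and the Crabp2 values 1.77 to 3.05 against 3.12 to 9.21, small against the array mean of 150.

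Of the receptor genes, Rarb had a higher mean in Cre-labelled lungs, with overlapping groups. Rarb encodes retinoic acid receptor beta and is induced by retinoic acid through the repeat printed above. It read 6.02, 5.49 and 6.29 on the control-labelled arrays and 6.70, 5.98 and 6.66 on the Cre-labelled arrays. Cre-labelled replicates 1 and 3 lay above all controls, and replicate 2 lay below 2 of them. The difference was 0.52 ± 0.26 SE (95% interval -0.07 to 1.10; limma adjusted p = 0.32), positive in all 18 alternative fits and past the threshold in none. Leaving out 1 array moved it from 0.29, without control-labelled replicate 2, to 0.75, without Cre-labelled replicate 2.

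Rara, the gene of receptor alpha, read 4.40, 4.78 and 4.72 against 4.45, 4.44 and 2.46. Only Cre-labelled replicate 3 stood apart, and the other Cre-labelled arrays lay within the control-labelled range. The difference was -0.85 ± 0.50 SE (limma adjusted p = 0.40) with that array and -0.18 (adjusted p = 0.79) without it. Its mean lay only just above the level required for testing, at the 42.3 percentile of all probe sets.

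Rarg, the gene of receptor gamma, was measured by a brighter and a dimmer probe set. The brighter read 8.03, 8.05 and 7.60 on the control-labelled and 8.01, 8.18 and 7.73 on the Cre-labelled arrays, and replicate 3 was the lowest of each group. The difference was 0.08 ± 0.16 SE, and the interval of -0.28 to 0.44 corresponds to ratios of 0.824 to 1.36 (limma adjusted p = 0.84). The dimmer probe set read 4.20 to 5.12 and 3.90 to 5.56, with a difference of -0.11 ± 0.43 SE (adjusted p = 0.92). The probe sets thus differed in sign, and the sign of the brighter one turned in 3 of 18 alternative fits and that of the dimmer one in 3 of 16. The dimmer one ran from -0.56, without Cre-labelled replicate 1, to 0.27, without Cre-labelled replicate 3, and was -1.32 with the cardiac marker mean as a covariate (adjusted p = 0.15).

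Rxra encodes the common partner of the RARs and of several other nuclear receptors. Its brightest probe set gave 7.11, 7.43 and 7.05 on the control-labelled and 7.36, 7.23 and 7.15 on the Cre-labelled arrays. Among the 8 tested member probe sets only Aldh1a1 had a narrower interval. The difference was 0.05 ± 0.14 SE (95% interval -0.27 to 0.37; limma adjusted p = 0.89), so ratios below 0.831 or above 1.29 lie outside it, and its sign turned in 4 of 18 alternative fits. The next probe set read 5.70, 5.67 and 7.32 against 5.81, 5.73 and 6.27, with replicate 3 the highest of each group. Its difference was -0.30 ± 0.40 SE (adjusted p = 0.75) and 0.25 (adjusted p = 0.65) without control-labelled replicate 3. The weakest read between 0.05 and 3.06 and was not tested in the main fit.

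Cyp26b1 encodes a cytochrome P450 that inactivates retinoic acid and is expressed in mesenchyme and endothelium. It read 5.44, 5.30 and 5.87 on the control-labelled and 5.81, 5.51 and 5.66 on the Cre-labelled arrays, and all Cre-labelled values lay inside the control-labelled range. The difference was 0.12 ± 0.21 SE (95% interval -0.36 to 0.61; limma adjusted p = 0.81), so ratios below 0.780 or above 1.52 lie outside its interval. It was 0.0041 without control-labelled replicate 2, 0.29 without control-labelled replicate 3 and -0.14 with the cardiac marker mean as a covariate, where its sign turned. It also moved by more than 1.5 times without control-labelled replicate 1 (0.075), Cre-labelled replicate 1 (0.048) and Cre-labelled replicate 2 (0.20).

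**Figure D3:**
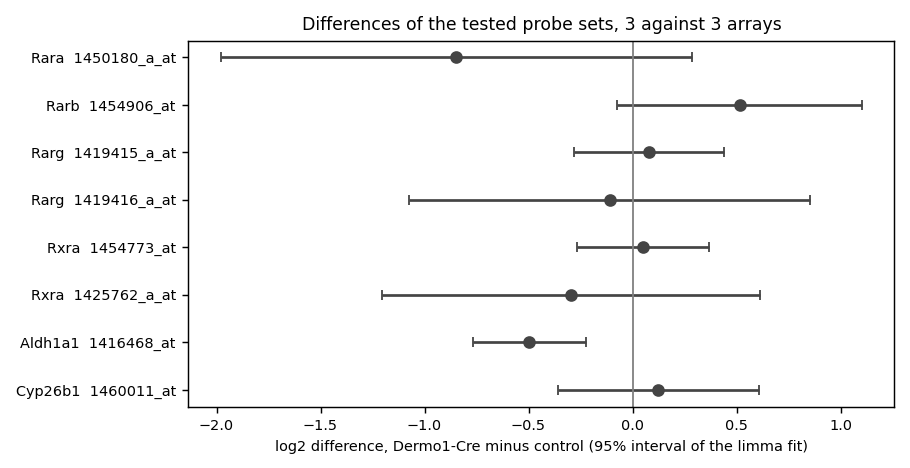
Log2 difference, Cre-labelled minus control-labelled (x axis), of the 8 member probe sets tested, with the 95% interval of the limma fit on 3 against 3 arrays (bars). Only the interval of Aldh1a1, -0.77 to -0.22, leaves out 0, and that of Rara, -1.98 to 0.29, is the widest.

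Counted over the 6 member genes with a tested probe set, by the brightest one each, 4 differences were positive and 2, of Aldh1a1 and Rara, were negative. Their median was 0.06, beside -0.01 over all 12826 tested genes, and the median of their sizes was 0.31 beside 0.19. The member differences were also less precise, with a median SE of 0.24 over the 8 tested probe sets beside 0.18 over all tested probe sets. That of Rara rested on Cre-labelled replicate 3. These 6 are not all members, since Crabp1, Crabp2 and Stra6 fell below the level for testing.

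The rest of the pathway was followed in 63 further genes listed by role, of which 44 had a tested probe set, 11 read too low and 8 were not analysed here. The lists were made with earlier results of these data known, so shares over them are descriptions only. Of the 44, 1 rose and 1 fell, or 4.55%, beside 4.96% of all tested genes. Both belong to the list of genes known to respond to retinoic acid. At an unadjusted p under 0.05 there were 14 of 44 (31.8%), beside 23.6% of all tested genes, and groups did not overlap for 15 of 44 (34.1%), beside 31.8%.

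**Figure D4:**
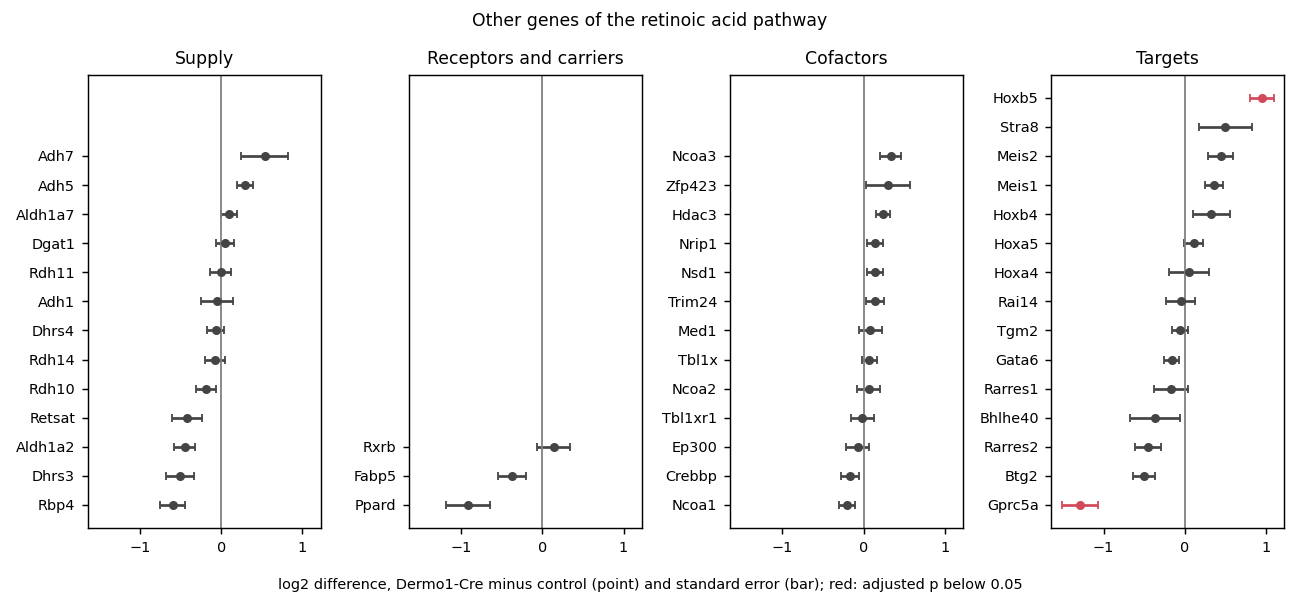
Log2 difference, Cre-labelled minus control-labelled (x axis, point), with its standard error (bar) for the 44 other pathway genes tested, grouped by role. The red points, Hoxb5 at 0.95 and Gprc5a at -1.29, passed an adjusted p of 0.05.

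None of the 13 tested supply genes passed the threshold in limma. An unadjusted p under 0.05 was found for 5 (38.5%, beside 23.6% of all tested genes), 4 lower and 1 higher. The 4 lower include Dhrs3, described below as lowering retinoic acid formation, so the count gives no direction of supply. Rbp4, the gene of the plasma carrier of retinol, read 6.49, 6.66 and 6.53 on the control-labelled and 5.78, 5.99 and 6.10 on the Cre-labelled arrays. The difference of Rbp4 was -0.60 ± 0.16 SE (limma adjusted p = 0.075). Aldh1a2, the main retinaldehyde dehydrogenase of embryonic mesenchyme and mesothelium, read 8.16, 8.05 and 7.89 against 7.37, 7.62 and 7.76. Its difference was -0.45 ± 0.13 SE (adjusted p = 0.098). In both genes the groups did not overlap, as was the case for 6 of the 13 supply genes (46.2%) and 31.8% of all tested genes.

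Dhrs3, a retinaldehyde reductase gene that lowers retinoic acid formation and is itself induced by it, read 7.71, 8.19 and 8.17 on the control-labelled and 7.34, 7.80 and 7.40 on the Cre-labelled arrays. Its difference was -0.51 ± 0.17 SE (limma adjusted p = 0.14), and Cre-labelled replicate 2 lay within the control-labelled range. Adh5, an alcohol dehydrogenase gene of broad expression, had a difference of 0.29 ± 0.10 SE (adjusted p = 0.15), with all Cre-labelled arrays above the controls. Aldh1a7, a close copy of Aldh1a1 singled out after its values were seen, read 11.30, 11.35 and 11.30 against 11.40, 11.41 and 11.42, a difference of 0.09 ± 0.10 SE (adjusted p = 0.67). Whether RNA of one copy binds probes of the other was not tested.

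Among the other receptors and carriers, Rxrb, Ppard and Fabp5 were tested, by the brightest probe set each, and none passed the threshold in limma. An unadjusted p under 0.05 was found for 1 of the 3 (33.3%, beside 23.6% of all tested genes). FABP5 carries retinoic acid and fatty acids to the nuclear receptor PPAR delta, the product of Ppard. Ppard read 5.57, 5.31 and 5.51 on the control-labelled and 5.08, 4.30 and 4.28 on the Cre-labelled arrays, without overlap (-0.91 ± 0.27 SE, limma adjusted p = 0.099). Groups did not overlap for 31.8% of all tested genes. Fabp5 had a difference of -0.37 ± 0.17 SE (adjusted p = 0.26). A second probe set of it had a difference of -0.57 ± 0.15 SE and groups that did not overlap, and did not pass either (limma adjusted p = 0.077). Rxrb, a partner receptor gene, had one of 0.14 ± 0.20 SE (adjusted p = 0.76).

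Of 13 tested genes of receptor cofactors none passed the threshold in limma. An unadjusted p under 0.05 was found for 2 (15.4%, beside 23.6% of all tested genes), both higher. Hdac3, the deacetylase of the corepressor complex, had a difference of 0.24 ± 0.09 SE (limma adjusted p = 0.17), and the coactivator gene Ncoa3 one of 0.33 ± 0.13 SE (adjusted p = 0.20). The coactivator genes Ncoa1 and Crebbp had -0.21 ± 0.10 SE and -0.17 ± 0.11 SE. The median size of the differences in this list was 0.14, beside 0.19 over all tested genes. It was 0.18 for the supply genes, 0.37 for the 3 other receptors and carriers and 0.36 for the genes known to respond to retinoic acid. No other clearance gene could be tested. Cyp26a1 read 2.60, 2.83 and 1.98 on the control-labelled and 1.65, 2.39 and -0.85 on the Cre-labelled arrays, below the level for testing.

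Of 15 tested genes known to respond to retinoic acid, 1 rose, 1 fell and 13 did not pass. The share called was 13.3%, beside 4.96% of all tested genes. This list was made with earlier results of these data known, so its shares are descriptions and not independent tests. In limma 6 of the 15 (40%) had an unadjusted p under 0.05, 3 lower and 3 higher, beside 23.6% of all tested genes. Hoxb5, a homeobox gene patterned by retinoic acid and active in lung mesenchyme, rose from 6.61, 6.55 and 6.45 to 7.33, 7.42 and 7.73. Its difference was 0.95 ± 0.14 SE (limma adjusted p = 0.012), and it passed in 17 of 18 alternative fits, all but that with the cardiac marker mean as a covariate, where the difference was 1.21 ± 0.20 SE (adjusted p = 0.056). Gprc5a, an epithelial receptor gene first found as induced by retinoic acid, fell from 10.56, 10.42 and 9.79 to 9.35, 8.94 and 8.62. Its difference was -1.29 ± 0.22 SE (adjusted p = 0.019), and it passed in 12 of 18 alternative fits (adjusted p 0.0056 to 0.13). With the cardiac covariate its difference was -1.30 ± 0.36 SE (adjusted p = 0.13). Of the 6 fits lacking 1 array it passed in 2, which lacked replicate 3 of the controls and replicate 1 of the Cre-labelled lungs. Meis1, a homeobox gene, had a difference of 0.36 ± 0.11 SE (adjusted p = 0.096) and the antiproliferative gene Btg2 one of -0.50 ± 0.14 SE (adjusted p = 0.084).

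Textbook targets of the receptors gave values in both directions. Rarb, at 0.52, and Dhrs3, at -0.51, had opposite signs and neither passed. Cyp26a1, with its values given above, read too low to be tested. The homeobox genes Hoxb4, at 0.33 ± 0.23 SE, Hoxa5, at 0.11 ± 0.12 SE, and Hoxa4, at 0.05 ± 0.24 SE, did not pass, and Tgm2, the transglutaminase gene, was at -0.06 ± 0.10 SE (limma adjusted p = 0.80). These 4 and Stra8 were singled out after their values were seen. Stra8, a germ cell gene named for its response to retinoic acid, read 4.13, 3.42 and 4.47 on the control-labelled and 4.30, 4.70 and 4.52 on the Cre-labelled arrays.

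Across the 6 arrays the genes whose signal ran most like that of Aldh1a1, among 12261 other named genes, were Ahnak (Pearson's r = 0.999), which encodes a large scaffold protein, the tumour necrosis factor receptor gene Tnfrsf1b (0.993) and the kinase gene Camk2b (0.992). These are descriptions over 6 arrays that share the group difference. Ahnak read 11.54, 11.75 and 11.77 on the control-labelled and 11.21, 11.33 and 11.44 on the Cre-labelled arrays. As in Aldh1a1, replicate 1 was the lowest of each group.

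Markers of several cell types moved in the same direction as Aldh1a1. The summed signal (log2) of 8 markers listed as mesothelial was 11.70 to 12.01 on the control-labelled and 10.96 to 11.27 on the Cre-labelled arrays. The 2 of the 8 that fell, Krt19 and Msln, were the brightest over all arrays, and a sum of linear signals is weighted to the brightest. Krt19 was the brightest of the 8, and whether its signal came from mesothelium was not tested. Wt1 was higher, at 0.47 ± 0.30 SE (limma adjusted p = 0.44), and the others were lower without passing. Over all tested genes 4.96% passed in either direction. The summed signal of 7 endothelial markers was 12.63 to 12.78 against 12.08 to 12.46, with 1 fall, of Car4. The other endothelial markers were lower without passing. For 10 alveolar epithelial markers the sum was 14.46 to 15.28 against 14.19 to 14.31, with 6 falls. Sftpc, the brightest of these 10, was at -0.07 ± 0.30 SE (limma adjusted p = 0.93). Ager, Hopx and Nkx2-1 were lower without passing. For 7 immune markers the sum was 12.33 to 12.50 against 11.56 to 11.78, with 3 falls, of Lyz2, S100a8 and Ngp. Lyz2 was the brightest of the 7, with group means of 11.79 and 10.91. Ptprc, Csf1r and Cd68 were lower without passing (limma adjusted p 0.25, 0.41 and 0.28), and Cd3e read too low to be tested. The summed signal of 6 airway markers was 13.72 to 14.43 against 13.50 to 13.75, with 2 falls and overlapping groups. Mesenchymal markers ran at 13.99 to 14.18 against 14.00 to 14.12, and none of the 8 passed the threshold in limma. Among them Pdgfra (-0.33 ± 0.14 SE) and Tcf21 (-0.32 ± 0.14 SE) had an unadjusted p under 0.05, with limma adjusted p of 0.25 and 0.24.

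Aldh1a1 is known from airway epithelium and endothelium, Aldh1a2 from mesothelium and Gprc5a from alveolar epithelium, and the part of these cell types in the values above was not tested. Of 10 cell cycle markers 9 rose, while 4.96% of all tested genes passed in either direction. The summed signal of the 10 was 13.20 to 13.36 against 13.73 to 13.82. The defining markers Cd3e and Hba-a1 read below the level for testing on average. Cardiac muscle markers summed to 11.65 to 13.53 against 10.86 to 12.20, liver markers to 6.07 to 9.82 against 6.36 to 8.80 and erythroid markers to 10.04 to 10.53 against 9.15 to 9.84. With the cardiac marker mean as a covariate Aldh1a1 differed by -0.49 ± 0.19 SE (limma adjusted p = 0.25).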

How the data were processed

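Biotin-labelled cRNA from total RNA of fetal lung was hybridised to Affymetrix arrays. For the authors' processing, MAS5 and affy are named in the submitters' processing notes, with no versions or settings. The deposited values behave as log2 signals, with the same trimmed mean (2% off each end) on every array on the linear scale. Values were used as deposited, without an offset. 

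Of 45101 probe sets, 64 Affymetrix controls were dropped. A single gene symbol was given for 34945 of the others, several for 932 and none for 9160. Probe sets whose mean reached the 40th percentile (27022) entered a limma fit without covariates (version 3.58.1, R 4.3.3; lmFit, then eBayes with trend; tests two-sided; 4 residual and 5.32 prior degrees of freedom). Adjustment was Benjamini-Hochberg over all of them, with a threshold of 0.05. The brightest tested probe set stood for a gene. The fit was tested on simulated data.

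The members and lists were chosen with earlier results of these data known. Named pathway genes are those past the threshold and up to 4 of each list with the smallest p. For the member with the smallest p, the 3 genes of highest Pearson correlation were named. Upstream windows came from RefSeq (GRCm38.p6). Alternatives were quantile normalization, median scaling, offsets of 16 and 64, no filter or one at the 60th percentile, no trend, weighted arrays, a block for replicate number, fetal sex (read from Xist and Eif2s3y) or cardiac markers as covariates, each array left out, and averaging each gene's probe sets. The fit with no filter and an offset of 64 together was added after seeing the data. Plots used matplotlib 3.10.9 (Python 3.11.15).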

Additional observations from a re-analysis of the deposited data

How the results depend on the processing

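The count of 0 called member probe sets and genes became 1, Aldh1a1, under quantile normalization, with a filter at the 60th percentile and with the replicate number as a block; for genes it was also 1 after averaging over the probe sets of each gene. It was 0 under the other alternatives and in all 6 fits without 1 array. Labels do not say that equal replicate numbers pair animals. The deviations of same-numbered arrays correlated at -0.01, 0.20 and 0.14, and those of differently numbered arrays at -0.27 to 0.14. So few arrays cannot decide whether animals were paired, and the block is not read as a paired design. The 2 calls among the other pathway genes became 1 without an intensity trend, 0 with the cardiac marker mean as a covariate, 3 with the replicate block, 3 after averaging probe sets per gene, and 1 to 2 without 1 array. Over all probe sets the count of 963 became 171 without a trend, 587 with fetal sex and 6 with the cardiac marker mean as a covariate, 1309 with the replicate block, and 314 to 495 without 1 array. The median member difference of 0.065 became -0.086 with the cardiac marker mean as a covariate, -0.069 when probe sets were averaged per gene, and -0.045 (without replicate 3 of the controls) to 0.11 without 1 array; the cause was not tested. MAS5 signals near the floor limit Crabp1, Crabp2, Stra6 and Rara.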
